A study of Mus musculus with 14 samples.

Results

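The genes described here are *Nts*, which encodes neurotensin, *Efemp1*, which encodes fibulin-3, and the fibulin relatives *Efemp2* (fibulin-4), *Fbln1*, *Fbln2* and *Fbln5*. They are 6 of the 27962 gene names on the array, and each was found by its name in the scanner files, which gave 9 probes. *Nts* and *Efemp1* were selected on these arrays, because their signal was much lower in KTR than in wild type cells, from genes whose wild type signal also exceeded that of pTV cells by over 2-fold. Their values in those 2 comparisons are therefore given as a description. The fibulin relatives were chosen by family, not by their values, and they are not the whole family.

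Neurotensin is a secreted peptide of gut endocrine cells and neurons. It is cut from a precursor by prohormone convertases and binds the G protein-coupled receptors encoded by *Ntsr1* and *Ntsr2* and the sorting receptor sortilin (*Sort1*). Fibulins are secreted glycoproteins of the extracellular matrix, built from calcium-binding EGF-like repeats and a shared C-terminal domain, and they lie along elastic fibres and basement membranes. Fibulin-4 and fibulin-5 take part in elastic fibre assembly, while fibulin-1 and fibulin-2 bind basement membrane proteins such as nidogen. NF-κB p65 (RelA) is a transcription factor that enters the nucleus after TNFα and is acetylated by p300 on several lysines.

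All cells were *p65*(-/-) NIH 3T3 type mouse embryonic fibroblasts (MEFs) that had been infected with a lentivirus and kept as pools under selection, so that no group is a single clone. The virus carried wild type p65, the triple mutant KTR (K310/314/315R), the double mutant K314/315R, or the empty vector pTV, and in the mutants the named lysines were replaced by arginine, which cannot be acetylated. Cultures were starved overnight. After 3 h of 30 ng/ml mouse TNFα, 3 cultures of the wild type, KTR and pTV lines and 2 of the K314/315R line were measured, 1 array each. Another 3 arrays held untreated wild type cells (0 h). There was no untreated sample of KTR, K314/315R or pTV among the arrays used. The comparisons asked which genes depend on p65 and which respond to the loss of the acetylated lysines. The paper describes no separate infections per line, so p65 variant and pool cannot be told apart in any comparison between lines. The p-values there rest on the spread between cultures.

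The 14 one-colour arrays lay on 4 slides, with 1 array of every other group on each of slides 1 to 3 and both K314/315R arrays alone on slide 4. In any comparison with K314/315R, slide and cell line cannot be told apart. The 75th percentile of the corrected intensities was 967 to 1442 per array, and 48.9% to 57.4% of the probes were well above background. Values below are log2 signals relative to that percentile, so that 0 is the signal of a probe at the percentile, and levels of different genes are not comparable because each probe binds with its own strength. Of the 12 fibroblast markers, 10 were well above background on all 14 arrays, and *Lum* was so on none. The 4 endothelial markers, *Ptprc*, *Emr1* and *Itgam* of blood cells, *Epcam* and *Cdh1* of epithelium, and *Syp*, *Chga* and *Scg2* of neurons and endocrine cells were well above background on no array. Of the other markers on the array, *Tubb3*, *Krt8* and *Krt19* were so on all 14, *Csf1r* on 13, *Cd68* on 6, *Krt18* on 5, *Snap25* on 4 and *Chgb* on 2. The number of arrays limits the precision throughout.

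Tested were probes that rose well above background on all arrays of 1 group or more. This held for 7 of the 9 member probes, at least 1 of each gene, and for 22172 of 41174 probes in all. The other 2 probes, both of *Fbln5*, were well above background on 0 and 1 of 14 arrays and have no level here. No spot of these genes was saturated. *Fbln1* had 2 tested probes. The brighter is meant where no probe is named.

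The bases just upstream of *Nts* and *Efemp1* are shown because these 2 genes had the largest differences between the p65 lines among the 6. They come from RefSeq (GRCm38.p6), are written 5′ to 3′ on the strand of the gene and end before the annotated start of the gene. The *Nts* stretch is chr10:102490419-102490668 on the minus strand, and the *Efemp1* stretch is chr11:28852955-28853153 on the plus strand. Capitals mark matches to 6 motifs that were searched on both strands.
Nts: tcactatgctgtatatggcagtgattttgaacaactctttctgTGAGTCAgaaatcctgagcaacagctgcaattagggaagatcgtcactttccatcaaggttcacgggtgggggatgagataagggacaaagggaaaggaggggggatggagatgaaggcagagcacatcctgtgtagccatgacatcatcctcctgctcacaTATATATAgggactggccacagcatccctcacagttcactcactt
Efemp1: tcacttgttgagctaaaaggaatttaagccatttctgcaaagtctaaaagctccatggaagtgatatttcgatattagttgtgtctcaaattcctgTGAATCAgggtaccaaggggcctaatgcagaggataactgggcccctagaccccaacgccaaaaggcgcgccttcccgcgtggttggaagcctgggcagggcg
Both stretches hold 1 match to the pattern TGANTCA, searched as the AP-1 motif with any base at N. It reads TGAGTCA 201 to 207 bases before the start in the *Nts* window and TGAATCA 148 to 154 bases before it in the *Efemp1* window. The 2 matches thus differ in the central base. The start used for the *Efemp1* window lies 51 bases past the end of the printed stretch, in which the match stands 97 to 103 bases from the end. Of 32851 promoter windows, 6.75% had such a match in the 250 bases before the start. The *Nts* stretch also holds 2 overlapping matches to TATATA, which 5.25% of the windows had. The other motifs searched were TATAAA (12.4% of windows), the cyclic AMP response element TGACGTCA (1.55%), the GC box GGGCGG (32.7%) and the NF-κB consensus motif (7.25%). The *Efemp1* window has 1 GC box between the printed stretch and the start used for the window. Among the 8 windows of the fibulin relatives, the NF-κB consensus was matched in 1 of the 2 *Fbln1* windows and the AP-1 motif in none. A match is a run of letters, and whether a factor binds there was not measured.

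*Nts* gave a clear signal in wild type cells, a weaker one in KTR, and none well above background in pTV cells, which lack p65. In wild type cells at 3 h its log2 signals were −0.77, −0.83 and −0.75, a mean of −0.78 ± 0.04 (SD, n = 3), and at 0 h they were −1.29, −1.22 and −1.27, a mean of −1.26 ± 0.04 (SD, n = 3). KTR cells had −2.76, −3.47 and −2.13, a mean of −2.79 ± 0.67 (SD, n = 3). The K314/315R arrays gave −2.04 and −1.08. In pTV cells the values were −5.90, −5.29 and −5.36, and the probe was well above background on 0 of 3 arrays. Wild type cells were thus tightly grouped, the mutants spread more widely, and the KTR arrays were all lower than any wild type or K314/315R array.

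*Efemp1* was lower in KTR by a similar amount but kept its wild type level in K314/315R cells. Its log2 signals were −0.73, −0.91 and −1.11 in wild type cells at 3 h, a mean of −0.92 ± 0.19 (SD, n = 3), and −0.45, −0.54 and −0.91 at 0 h, a mean of −0.63 ± 0.24 (SD, n = 3). KTR cells had −2.57, −2.75 and −2.83, a mean of −2.72 ± 0.14 (SD, n = 3). The K314/315R arrays gave −0.85 and −1.08, both inside the range of wild type cells at 3 h. In pTV cells the values were −4.58, −5.22 and −4.23, with the probe well above background on 2 of 3 arrays. The KTR arrays filled a narrow band of their own between pTV and all other arrays.

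**Figure D1:**
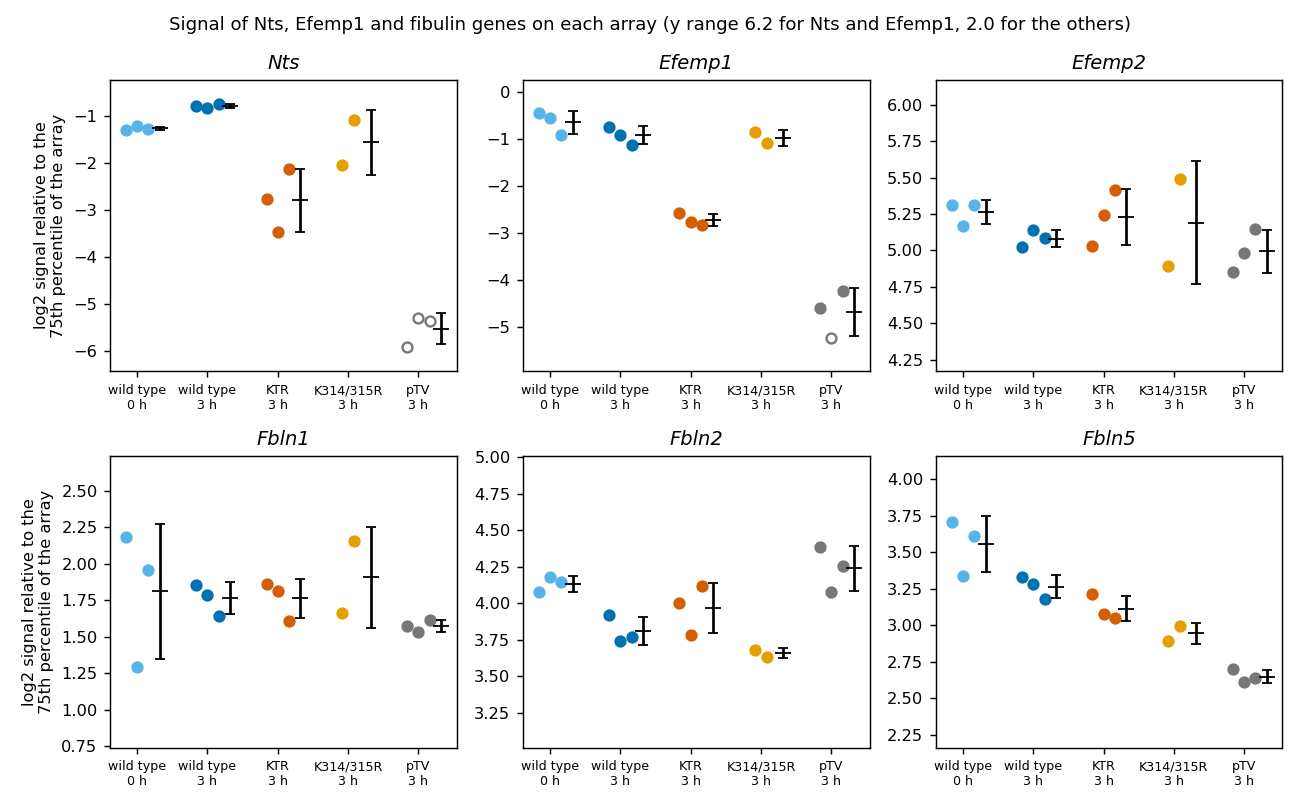
Log2 signal over the array's 75th percentile (y axis) for the brightest probe of each gene in the 5 groups (x axis); each point is 1 array, open points were not well above background, and the bars beside them are the mean ± SD. *Nts* and *Efemp1* are lower in KTR and lowest in pTV, where no *Nts* point was well above background, while the other genes stay within a range of 2.0 log2 units that is drawn at a larger scale.

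*Nts* was 4.01-fold lower in KTR than in wild type cells at 3 h, a log2 difference of −2.002 (SE 0.31). *Efemp1* was 3.48-fold lower, a log2 difference of −1.797 (SE 0.22), which left 28.8% of the wild type signal. In an order of 22170 tested probes by this difference, *Nts* was the 13th and *Efemp1* the 21st from the lower end. Within slides 1, 2 and 3, KTR minus wild type was −1.99, −2.64 and −1.38 for *Nts* and −1.84, −1.84 and −1.72 for *Efemp1*. Both genes were thus below wild type on each slide, *Efemp1* by nearly the same amount and *Nts* by amounts that varied. By limma, with calls at a change over 1.8-fold in either direction and adjusted p under 0.05, the call was made for 2 of the 7 member probes, both lower in KTR, beside 0.167% of all tested probes. These are *Nts* and *Efemp1*, which were selected on this contrast, so the count describes the choice. None of the 5 probes of the fibulin relatives was called or had an adjusted or an unadjusted p under 0.05. The median difference over the 7 member probes was −0.00, beside 0.06 over all tested probes. The *Nts* difference ran from −2.33 to −1.66 with 1 array left out. *Nts* was not called without wild type 3 h replicate 1, 2 or 3 (−1.997, −2.02 and −1.99), without KTR replicate 2 (−1.66) or with only the 2 groups in the fit, and neither gene was called with normexp background correction (*Nts* −1.54, *Efemp1* −1.43).

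The comparisons that follow share the wild type, KTR or pTV arrays with those on which *Nts* and *Efemp1* were selected, so their values are not independent of the choice on that side. K314/315R retained *Efemp1* at 96.7% of the wild type signal. The difference was −0.05 (95% interval −0.58 to 0.48, limma adjusted p = 0.944). *Nts* was at 58.5% of the wild type signal, a difference of −0.77 (SE 0.34, 95% interval −1.52 to −0.03). The 2 K314/315R arrays lay below all 3 wild type arrays but far from each other, and the difference did not pass (limma adjusted p = 0.27). Leaving out K314/315R replicate 1 gave −0.29, and leaving out its replicate 2 gave −1.26. Of the 7 member probes, 0 were called in K314/315R over wild type by limma, where 1.2% of all tested probes were called. An unadjusted p under 0.05 was reached by 3 of the 7 (*Nts*, the dimmer *Fbln1* probe and *Fbln5*) and by 17.4% of all tested probes.

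The 2 mutants differ in lysine 310, which is intact in K314/315R. *Efemp1* was 3.36-fold lower in KTR than in K314/315R, a log2 difference of −1.75 (SE 0.24, limma adjusted p = 0.00612), and it was the 1 member probe called of 7, where 2.55% of all tested probes were called. *Nts* was 2.34-fold lower, a difference of −1.23 (SE 0.34), and missed the threshold (limma adjusted p = 0.0611). Its lowest K314/315R array, at −2.04, lay next to the highest KTR array, at −2.13. When replicate numbers entered as a block, the *Nts* difference was −1.33 (limma adjusted p = 0.0295) and 2 member probes were called, although the numbers showed no pairing for K314/315R. With slide as a random block it was −1.23 (adjusted p = 0.188). It was also past the threshold without KTR replicate 3 (−1.56, adjusted p = 0.0263) and without K314/315R replicate 1 (−1.71, adjusted p = 0.0455), and was −0.74 without K314/315R replicate 2 (adjusted p = 0.398). *Efemp1* missed the threshold with only the arrays of the 2 mutants in the fit (adjusted p = 0.0626) and with normexp background correction (−1.27, adjusted p = 0.933).

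Without p65 both genes were lowest. *Efemp1* in wild type cells at 3 h was 13.5-fold above pTV, where 1 of 3 arrays was not well above background, and within slides 1, 2 and 3 it was higher by 3.85, 4.31 and 3.12 log2 units. *Nts* was at least 15.7-fold higher. This bound sets the mean of the bright group against a floor in pTV. The floor is taken per array as the probe's own signal or, where larger, the lowest signal of any probe well above background. The p-values given for *Nts* below come from the fit on its own pTV signals, not from the bounds. Of the 7 member probes 2 were called higher in wild type (over 2-fold, limma adjusted p under 0.05), again the 2 genes that were selected on this contrast, and 5.04% of all tested probes were called. KTR cells kept part of the signal. *Efemp1* was 3.89-fold higher in KTR than in pTV and *Nts* at least 3.93-fold, the 2 member probes called of 7, where 4.68% of all tested probes were. The arrays of both groups were used in the selection, so these values are given as a description. In K314/315R cells *Efemp1* was 13.1-fold above pTV (limma adjusted p = 1.0e-06) and *Nts* at least 9.20-fold (limma adjusted p = 9.0e-06), again 2 of 7 member probes, beside 8.86% of all tested probes. Unstimulated wild type cells were also far above pTV cells at 3 h, by 16.5-fold for *Efemp1* (limma adjusted p = 2.3e-07) and at least 11.3-fold for *Nts* (limma adjusted p = 1.8e-06), so that 2 of 7 member probes were called, beside 5.56% of all. That comparison joins the presence of p65 with the absence of TNFα. With normexp background correction, *Nts* and *Efemp1* were not called in KTR over pTV (0.80 and 0.48 log2 units) or in K314/315R over pTV (1.59 and 1.75). In unstimulated wild type over pTV *Nts* was not called either (1.81), and the 2 calls there were *Efemp1* and *Fbln5*. That correction compressed the dim signals of 1 wild type and 1 pTV array, and with these 2 left out both genes were called in all 4 comparisons with pTV.

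The fibroblast and epithelial markers also moved between wild type and pTV cells. Of the 11 fibroblast markers tested, *Pdgfra*, *Pdgfrb* and *Dcn* were called higher and *Thy1* lower in wild type cells, and the summed signal of the 12 markers, relative to the 75th percentile, was 1141 to 1308 in wild type cells at 3 h and 1064 to 1274 in pTV cells. Of the 3 epithelial markers tested, *Krt18* was called lower in wild type cells. It was well above background on 1 of 3 arrays there and 3 of 3 in pTV cells, so the 5.76-fold difference is not exact. The summed signal of the 5 markers was 0.683 to 0.734 in wild type and 1.06 to 1.29 in pTV cells. *Krt18* was called lower in all 4 comparisons with pTV, the group through which it passed the filter, and *Krt8* and *Krt19* in none. It was well above background on 0 KTR, 0 K314/315R and 1 unstimulated wild type array. Of the fibroblast markers 4, 3, 4 and 4 were called in wild type at 3 h, KTR, K314/315R and unstimulated wild type over pTV. The shares of all tested probes called there were 5.04%, 4.68%, 8.86% and 5.56%. In KTR over wild type 0 of the tested markers of any list were called. The summed epithelial signal was 0.791 to 0.978 in KTR, above the range of wild type cells at 3 h. Unstimulated wild type cells had 0.877 to 0.983, which overlaps KTR. *Snap25*, a neuronal marker, was well above background on all 3 wild type arrays at 3 h and on no KTR, K314/315R or unstimulated wild type array. Its log2 difference was −2.38 in KTR (limma adjusted p = 0.249) and −1.74 in K314/315R over wild type. It was 1.98 in wild type 3 h over 0 h and 1.61 in wild type over pTV. These differences and that of KTR over K314/315R (−0.64) had the direction of *Nts*, and none passed. KTR (−0.77), K314/315R (−0.13) and unstimulated wild type (−0.37) over pTV had the opposite direction. Outside wild type at 3 h the signal was mostly not above background, so these sizes are not exact. *Tubb3*, the other tested neuronal marker, went against *Nts* in every comparison but KTR over K314/315R (−0.14). The part of these changes in the differences of *Nts* and *Efemp1* was not tested, and a change in the make-up of a pool and a change in RNA per cell cannot be told apart in bulk samples.

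Neither gene was called for TNFα in wild type cells. *Nts* was 0.48 log2 units higher at 3 h than at 0 h (SE 0.31, 95% interval −0.19 to 1.14, limma adjusted p = 0.497). With only these 2 groups in the fit the adjusted p was 0.0147, at a fold under the limit of 1.8. All 3 arrays at 3 h lay above all 3 at 0 h, and the difference within slides 1, 2 and 3 was 0.51, 0.39 and 0.52. *Efemp1* was 0.29 lower (95% interval −0.76 to 0.19, limma adjusted p = 0.587), with overlapping groups. Of the 7 member probes 0 were called by limma, where 1.55% of all tested probes were called. An unadjusted p under 0.05 was reached by 2 of the 7 (*Fbln2* and *Fbln5*) and by 17.0% of all tested probes.

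**Figure D2:**
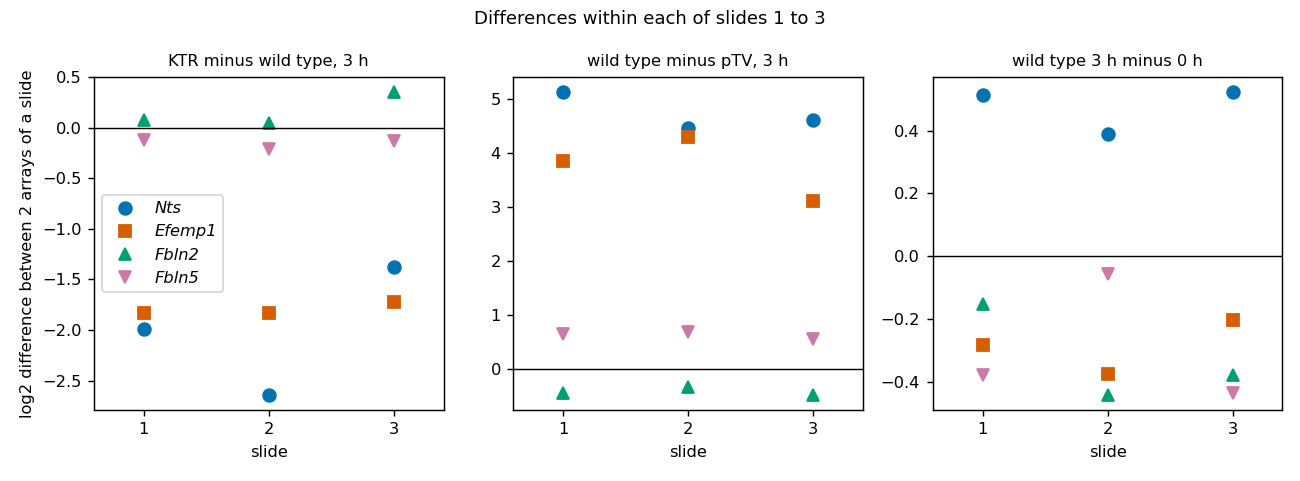
Log2 difference between 2 arrays of the same slide (y axis) on slides 1, 2 and 3 (x axis), for KTR minus wild type, wild type minus pTV and wild type at 3 h minus 0 h; each point is 1 pair of arrays. The KTR differences of *Efemp1* are nearly equal (−1.84, −1.84 and −1.72), those of *Nts* spread from −2.64 to −1.38, and in that panel *Fbln2* lies from 0.046 to 0.35 and *Fbln5* from −0.21 to −0.12.

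Ordered by mean level, *Nts* ran from wild type at 3 h through wild type at 0 h, K314/315R and KTR to pTV. The values at 0 h fell between the 2 K314/315R arrays, so those neighbours did not differ beyond their spread. *Efemp1* ran from wild type at 0 h through wild type at 3 h, K314/315R and KTR to pTV, and the first 3 groups overlapped.

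*Efemp2*, *Fbln1*, *Fbln2* and *Fbln5* gave strong signals in all 5 groups and varied far less than *Efemp1*. None of their differences was called in the 8 comparisons. *Fbln7* and *Hmcn1*, placed in the list of fibulin partners below, were well above background on 5 and 0 of 14 arrays and were not tested. *Efemp2*, the closest relative of *Efemp1* by name, had log2 signals of 5.02, 5.14 and 5.09 in wild type cells at 3 h and of 5.03, 5.24 and 5.41 in KTR. The KTR difference of 0.15 had a 95% interval of −0.18 to 0.47 (limma adjusted p = 0.823). The K314/315R arrays gave 4.89 and 5.49, pTV cells 4.85, 4.98 and 5.15, and wild type cells at 0 h 5.31, 5.17 and 5.31. *Efemp2* passed in none of the 8 comparisons, and all its group means lay between 4.99 and 5.26.

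*Fbln1*, which encodes a fibulin of basement membranes and blood plasma, had log2 signals of 1.86, 1.79 and 1.65 in wild type cells at 3 h and of 2.18, 1.29 and 1.95 at 0 h. KTR cells had 1.86, 1.82 and 1.61, K314/315R cells 1.66 and 2.15, and pTV cells 1.58, 1.53 and 1.62, with the pTV arrays just below those of wild type cells at 3 h. Its KTR difference was −0.00 (95% interval −0.43 to 0.43). The dimmer probe averaged 0.40 in wild type cells at 3 h and 0.48 at 0 h, 0.45 in KTR, 0.80 in K314/315R and 0.26 in pTV. It was 0.54 higher in K314/315R than in pTV (limma adjusted p = 0.0333), under the 2-fold limit. The brighter probe differed there by 0.33 (limma adjusted p = 0.296).

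*Fbln2* was the 1 member with its highest mean in pTV cells, close to that of unstimulated wild type cells. Its log2 signals were 4.38, 4.08 and 4.25 in pTV cells. They were 3.92, 3.74 and 3.77 in wild type cells after TNFα and 4.07, 4.18 and 4.15 before it. The 3 KTR arrays ranged from 3.79 to 4.12, and the K314/315R arrays gave 3.68 and 3.64. Wild type cells at 3 h lay 0.43 below pTV (SE 0.11, limma adjusted p = 0.0188) and K314/315R cells 0.58 below (limma adjusted p = 0.00448), both without overlap and both under 2-fold. KTR (−0.27, limma adjusted p = 0.125) and wild type at 0 h (−0.11, limma adjusted p = 0.547) overlapped pTV. KTR overlapped wild type (difference 0.16, limma adjusted p = 0.716). The value at 3 h of TNFα was −0.32 relative to 0 h (limma adjusted p = 0.132).

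*Fbln5*, which encodes an elastin-binding fibulin, was higher in p65-expressing cells than in pTV, the direction of *Efemp1*, at a smaller size. Its log2 signals in wild type cells were 3.33, 3.28 and 3.18 at 3 h and 3.71, 3.34 and 3.61 at 0 h. KTR cells had 3.21, 3.08 and 3.05 and K314/315R cells 2.89 and 3.00. The pTV arrays were lowest, with 2.70, 2.61 and 2.63. It was 1.53-fold higher in wild type at 3 h than in pTV (log2 0.62, SE 0.10, limma adjusted p = 0.00131), 1.38-fold higher in KTR (limma adjusted p = 0.00891) and 1.87-fold higher in wild type at 0 h (limma adjusted p = 6.2e-05). In K314/315R it was 1.23-fold higher (limma adjusted p = 0.077). All these groups lay above every pTV array, and all the folds were under the 2-fold limit. In wild type at 0 h over pTV the difference was 1.01 on the log2 scale, and called, without wild type replicate 2 at 0 h. It was also 1.01, and called, with normexp background correction (adjusted p = 0.0378). Unlike *Efemp1*, *Fbln5* did not pass between KTR and wild type (−0.15, 95% interval −0.38 to 0.07, limma adjusted p = 0.714). It did not pass between KTR and K314/315R either (0.17, limma adjusted p = 0.438).

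**Figure D3:**
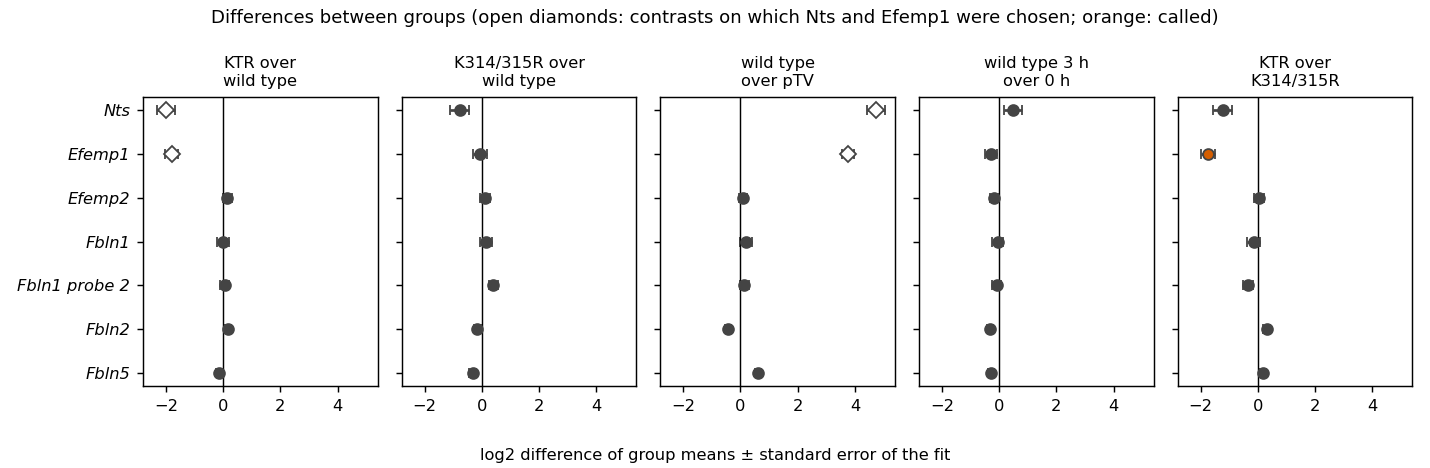
Log2 difference of group means ± standard error of the fit (x axis) for the 7 tested probes (y axis) in 5 comparisons. Open diamonds are *Nts* and *Efemp1* in the comparisons on which they were selected, orange marks a call and dark points are not called; *Efemp1* between KTR and K314/315R (−1.75) is the 1 orange point, and all fibulin relatives lie within 0.62 of 0.

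Of the genes that process, bind or degrade neurotensin, 11 were listed, 11 were on the array and 6 were tested. *Ntsr1* was well above background on 0 and *Ntsr2* on 1 of 14 arrays, while *Sort1* was so on all 14. *Sort1* averaged −0.92 and −0.58 in wild type cells at 3 h and 0 h, −0.73 in KTR, −0.89 in K314/315R and −0.39 in pTV, and none of its differences was called. In KTR over wild type 0 of the 6 tested genes were called, where 0.167% of all tested probes were (median difference 0.10, against 0.06 over all tested probes). The 1 call in the 8 comparisons was *Mme*, the membrane protease neprilysin that cleaves small peptides. It was 2.22-fold lower in KTR than in K314/315R (log2 −1.15, limma adjusted p = 0.0312), where 2.55% of all tested probes were called. KTR was close to wild type at 3 h (−0.007), while K314/315R, alone on its slide, was 1.14 above it (limma adjusted p = 0.0502).

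The second list held 30 genes of elastic fibres and of proteins that bind fibulins, of which 27 were on the array and 23 were tested. In KTR over wild type, K314/315R over wild type, wild type 3 h over 0 h and KTR over K314/315R, 0 of the 23 were called. The shares of all tested probes called there were 0.167%, 1.2%, 1.55% and 2.55%, so 0 of 23 does not set this list apart. In wild type over pTV 3 were called, where 5.04% of all tested probes were. *Nid1*, the basement membrane protein nidogen-1, was 2.59-fold higher (log2 1.37, limma adjusted p = 2.3e-05), and *Acan*, the cartilage proteoglycan aggrecan, and *Fbn2*, the microfibril protein fibrillin-2, were lower by 2.82-fold and 2.12-fold. The median over the 23 genes was −0.11, against −0.03 over all tested probes. *Nid1* was also higher than in pTV in KTR (2.28-fold), K314/315R (2.76-fold) and unstimulated wild type cells (2.23-fold). *Lox*, the lysyl oxidase that crosslinks elastin and collagen, and *Mfap4*, a microfibril-associated protein, were called in those same 3 comparisons, by 2.11-fold, 2.60-fold and 2.13-fold for *Lox* and by 2.48-fold, 2.09-fold and 3.30-fold for *Mfap4*. *Acan* and *Fbn2* were called lower in KTR and in K314/315R than in pTV, *Ltbp2* was called higher in K314/315R (2.22-fold), and *Tnc*, tenascin-C, lower in unstimulated wild type cells (2.68-fold). In all, 5 genes were called in KTR over pTV, 6 in K314/315R over pTV and 4 in unstimulated wild type over pTV, of 23 each, where 4.68%, 8.86% and 5.56% of all tested probes were called. *Fn1* is on both this list and that of fibroblast markers.

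**Figure D4:**
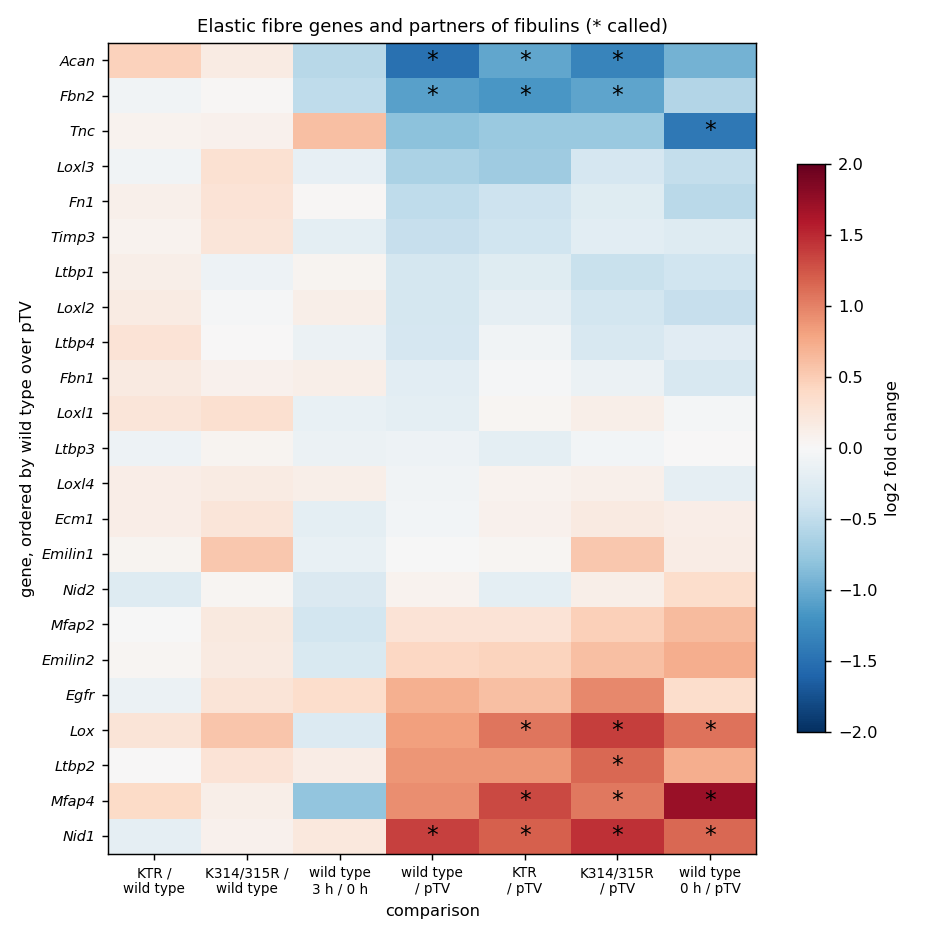
Log2 fold change (colour, from −2 to 2) of the 23 tested elastic fibre genes and fibulin partners (y axis, ordered by wild type over pTV) in 7 comparisons (x axis); a star marks a call. The first 3 columns, which hold the mutants over wild type and TNFα, have 0 stars, and the comparisons with pTV have 3, 5, 6 and 4. Of all tested probes, 0.167%, 1.2% and 1.55% were called in the former and 5.04%, 4.68%, 8.86% and 5.56% in the latter.

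Over the 14 arrays, *Nts* and *Efemp1* had a Pearson correlation of 0.945 with each other, and of 0.805 over the 11 arrays other than pTV. The 5 genes most like *Nts* by this measure were *Isgf3g* (now *Irf9*, 0.975), *1810009M01Rik* (now *Tmem176b*, 0.974), *H2-Q1* (0.973), an unnamed Ensembl transcript (0.973) and *Cd74* (0.971). Those most like *Efemp1* were *Vit* (0.978), *D11Lgp2e* (0.978), *Isgf3g* (0.975), *Ifi44* (0.975) and *D14Ertd668e* (0.974). Without the pTV arrays the values were 0.844 to 0.929 for the first 5 and 0.897 to 0.961 for the second, with *Vit*, which encodes the matrix protein vitrin, the highest. The points share slides and groups, the low pTV values carry much of each correlation, and *Vit* and *Ifi44* were well above background on no pTV array, so these values describe the arrays and carry no test. In KTR the *Vit* mean was −3.78, against −2.13 in wild type at 3 h and −1.87 in K314/315R.

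**Figure D5:**
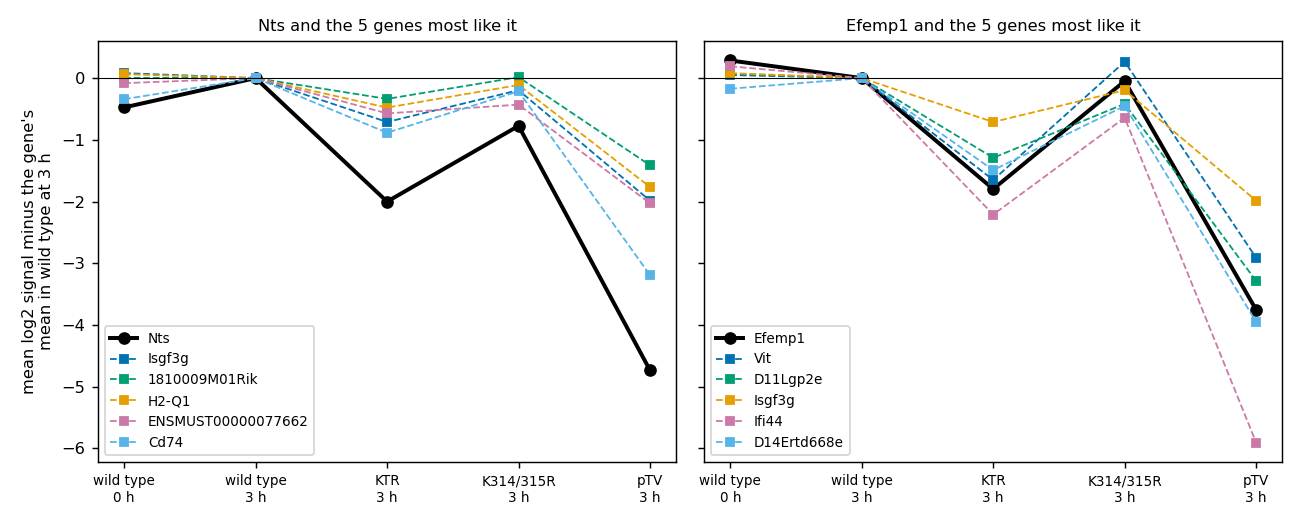
Mean log2 signal of each gene minus its own mean in wild type at 3 h (y axis) in the 5 groups (x axis), for *Nts* and *Efemp1* (black) and the 5 genes whose signals over the 14 arrays correlate best with each; lines join the group means of a gene. The genes like *Efemp1* are lower in KTR, higher again in K314/315R and lowest in pTV, where *Vit* and *Ifi44* were not well above background. In K314/315R *Ifi44*, *D14Ertd668e*, *D11Lgp2e* and *Isgf3g* stay below wild type at 3 h. The genes like *Nts* dip less in KTR than *Nts* itself.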

How the data were processed

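The authors deposited the scanner output of each array, in which Agilent Feature Extraction (9.1.1.1 for slides 1 to 3, 9.1.3.1 for slide 4) gives a background-corrected intensity per spot without scaling between arrays, and a table of normalized intensities that holds the same values times 1 factor per array (0.837 to 1.20). The error model of Rosetta Resolver, named in the methods, was not repeated here. No other columns were used.

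Spots marked as outliers (1 to 326 per array) were dropped, the remaining spots were averaged per probe, and the 75th percentile of the array was subtracted after log2 transformation. Groups were compared with limma 3.58.1 in R 4.3.3 (files read with the package data.table, version 1.17.8), with 14 arrays in 1 fit, two-sided, and adjustment by Benjamini-Hochberg across every tested probe. A call needed an adjusted p under 0.05 and a fold over 2 (comparisons with pTV) or over 1.8 either way. The steps were tested on simulated data with 200 changed probes.

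Replicate numbers, which equal the slide, pair the arrays of slides 1 to 3: deviations from group means correlated at 0.308 to 0.613 in 18 same-number pairs and at −0.510 to 0.0954 in 36 others. For K314/315R, 8 same-number pairs gave −0.101 to 0.411 and 16 others −0.416 to 0.416, which shows no pairing.

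Named are all 6 genes, by their brightest probe, the neurotensin receptors and *Sort1*, and *Fbln7* and *Hmcn1*. Also named are list genes called (at most 4 per direction) and the 5 genes of highest correlation with *Nts* and *Efemp1*. Fibroblast, blood, epithelial, endothelial and neuronal marker lists were used as checks. Their genes are named where detection is described or where called in wild type over pTV. The other tested epithelial and neuronal markers are named as well. The members and lists were chosen with earlier results of these data known. Arrays were of separate cultures isolated on different days. Alternatives were the filter, background correction, normalization, replicate or slide block, samples, outlier spots, unadjusted p and each array left out.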

Additional observations from a re-analysis of the deposited data

How the results depend on the processing

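Filters decided most counts. When a probe had to be well above background on each of the 14 arrays, 0 member probes were called in KTR over wild type, wild type over pTV, KTR over K314/315R, and KTR, K314/315R and unstimulated wild type over pTV, since that filter drops *Nts* and *Efemp1*. With normexp background correction 0 were called in KTR over wild type, over K314/315R and over pTV and in K314/315R over pTV. *Nts* was then −1.54 in KTR over wild type, 0.80 and 1.59 in KTR and K314/315R over pTV and 1.81 in unstimulated wild type over pTV, and *Efemp1* −1.43 in KTR over wild type, −1.27 over K314/315R, and 0.48 and 1.75 in KTR and K314/315R over pTV, all below the threshold. Normexp compressed the dim signals of 2 arrays: the 25th percentile of the tested probes was −0.45 on wild type 3 h replicate 1 and −1.06 on pTV replicate 2, but −2.20 to −1.71 on the others. Without these 2 arrays, an alternative chosen after seeing the data, normexp gave the main counts in every comparison but KTR over wild type, where 1 was called (*Efemp1* at −1.21, while *Nts* at −1.39 was not). There *Efemp1* in K314/315R over wild type was 0.067, *Fbln1* in KTR over wild type 0.069 and the dimmer *Fbln1* probe in wild type over pTV −0.032.

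*Nts* between KTR and K314/315R passed, with 2 member probes called, with no filter (−1.23, adjusted p = 0.0482), quantile normalization (−1.29), the authors' values (−1.31), the replicate block (−1.33) and the unadjusted p (−1.23). The block changed no other call, and slide as a random block changed none (*Nts* there adjusted p = 0.188). With only the 2 groups compared, 1 probe was called in KTR over wild type (*Nts* −2.002, below the threshold) and 0 between the mutants (*Efemp1* −1.75). *Fbln5* in unstimulated wild type over pTV was called under normexp (1.01). Signs also turned under normexp for *Fbln1* (0.27) and *Fbln5* (0.15) in KTR over wild type, *Fbln2* in K314/315R over wild type (0.18), *Efemp2* in wild type over pTV (−0.066) and *Fbln2* in unstimulated wild type over pTV (0.049), and for *Efemp2* between the mutants with the authors' values (−0.042) and the block (−0.012). Normexp moved the median of all tested probes from 0.06 to −0.04 in KTR over wild type and from −0.04 to 0.07 for TNFα.

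Leaving out 1 array gave 1 to 2 calls in KTR over wild type (1 without wild type 3 h replicate 1, 2 or 3 or KTR replicate 2, with *Nts* from −2.33 to −1.66) and 1 to 2 between the mutants (*Nts* −1.71 to −0.74). *Nts* in K314/315R over wild type ran from −1.26 to −0.29. Ranges that cross 0 were *Efemp1* in K314/315R over wild type (−0.17 to 0.069), *Fbln1* in KTR over wild type (−0.061 to 0.075; dimmer probe −0.019 to 0.16), in wild type 3 h over 0 h (−0.31 to 0.14; dimmer probe −0.21 to 0.067), in K314/315R over wild type (−0.10 to 0.39) and between the mutants (−0.39 to 0.10), and *Efemp2* between the mutants (−0.26 to 0.33), in K314/315R over wild type (−0.19 to 0.41) and over pTV (−0.10 to 0.50). The cause of these changes was not tested beyond the filter and the compressed arrays. The number of arrays and the signal over background, which *Nts* lacks in pTV, limit these values.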
